A study of Mus musculus with 20 samples.

Results

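Il33, Ch25h and Fgf1 are 3 genes whose messenger RNA fell steeply when cultured mouse nephron progenitor cells (NPCs) were moved from low to high CHIR. They were chosen by name for that fall in CTRL cells, and their rows were found through the symbols that the deposited comparison tables pair with gene identifiers. They are 3 of 31130 genes in the table of normalized counts, of which 4316 have a symbol and 16691 averaged at least 10 normalized counts over all libraries. All 3 genes passed that minimum. Il33 and Fgf1 encode proteins that act outside the cell, whereas Ch25h encodes an enzyme of the endoplasmic reticulum whose lipid product leaves the cell, so the 3 genes are sources of extracellular signals rather than 3 secreted proteins.

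Interleukin-33 is a cytokine of the IL-1 family that is held in the nucleus and released from damaged or stressed cells, after which it binds the receptor ST2 together with the shared co-receptor IL1RAP and activates NF-κB. Cholesterol 25-hydroxylase, the product of Ch25h, converts cholesterol to 25-hydroxycholesterol, an oxysterol that restrains sterol synthesis by blocking the processing of SREBP factors and that serves as a ligand of LXR receptors and a precursor of a chemoattractant for lymphocytes. FGF1 binds heparan sulphate and all main FGF receptors, and like interleukin-33 it lacks a classical signal peptide. FGF signalling is required for the survival and self-renewal of NPCs in the developing kidney, and FGFs are part of the media used to grow them.

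Messenger RNA was sequenced from 20 libraries of NPCs isolated from embryonic day 16.5 kidneys, kept in the growth medium NPEM and sorted for the mCherry reporter of transfection. All cells, CTRL included, carried a Rosa26 transgene for Cas9 and eGFP and came from crosses with SWR/J mice. CTRL cells received a single guide RNA (sgRNA) against GFP, α-catenin KO cells one against Ctnna1, β-catenin KO cells one against Ctnnb1, and QCKO cells a set against Cdh2, Cdh3, Cdh4 and Cdh11. After a knockout period of 48 h, each was cultured for a further day in low (1.25 µM) or high (5 µM) CHIR, an inhibitor of GSK3β that stabilises β-catenin and so mimics a strong Wnt signal. Each CHIR condition held 3 libraries each of CTRL and β-catenin KO and 2 each of α-catenin KO and QCKO, and a replicate number stands for 1 of 3 dates shared across groups (α-catenin KO has replicates 1 and 3, QCKO replicates 2 and 3). Sorting on mCherry selects transfected cells, not edited ones, so a knockout population can hold unedited cells.

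The libraries held between 18124772 and 28472412 reads, with a median of 21449823. Ctnna1 was at 3599 and 3790 normalized counts in α-catenin KO in low CHIR and at 3564 and 3621 in high CHIR, below every CTRL library (5817 to 10082). The level of Ctnnb1 was not analysed here, since its identifier is not paired with a symbol. In QCKO the mean of Cdh3 was 682 in low and 3414 in high CHIR, against 538 and 3288 in CTRL. That of Cdh4 was 2154 and 8471, against 2262 and 8081. QCKO and CTRL libraries overlapped for both, so these RNA levels do not show that the targets were lost. The paper reported removal of the proteins by staining, not in these libraries. Of the markers of the NPC state, 7 of 11 had an identifier, and their summed level was 15619 to 21896 in CTRL in low CHIR and 1478 to 2262 in high CHIR. One CTRL library stood apart: replicate 2 in high CHIR summed to 28329411 normalized counts, against 20081901 to 23674964 in the other libraries, and log2 differences of the 3 genes that use it are also given without it.

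The DNA just upstream of Il33 and Ch25h is shown because both genes fell in high CHIR along with the NPC markers. Both lie on chromosome 19, Il33 at chr19:29925113-29960718 and Ch25h at chr19:34473783-34475148, in RefSeq's annotation of GRCm38.p6. Promoter sequences were looked up for Il33 and Ch25h only, so none is shown for Fgf1. Each line gives the 250 bases before a transcript start, 5′ to 3′ on the gene's strand, for the upstream Il33 start at chr19:29924863-29925112 (+), the inner Il33 start at chr19:29945540-29945789 (+) and Ch25h at chr19:34475149-34475398 (-). Capitals mark TATAAA and the cyclic AMP response element TGACGTCA.
Il33 upstream promoter: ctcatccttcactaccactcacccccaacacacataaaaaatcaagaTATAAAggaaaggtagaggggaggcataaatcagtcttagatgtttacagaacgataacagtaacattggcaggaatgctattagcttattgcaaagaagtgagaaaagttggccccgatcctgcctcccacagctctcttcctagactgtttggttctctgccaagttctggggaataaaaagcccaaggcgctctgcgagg
Il33 inner promoter: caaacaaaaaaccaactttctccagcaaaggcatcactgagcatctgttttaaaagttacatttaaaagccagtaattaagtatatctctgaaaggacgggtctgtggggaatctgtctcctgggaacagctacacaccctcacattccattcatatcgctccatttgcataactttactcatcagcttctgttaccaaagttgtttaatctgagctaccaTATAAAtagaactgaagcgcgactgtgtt
Ch25h promoter: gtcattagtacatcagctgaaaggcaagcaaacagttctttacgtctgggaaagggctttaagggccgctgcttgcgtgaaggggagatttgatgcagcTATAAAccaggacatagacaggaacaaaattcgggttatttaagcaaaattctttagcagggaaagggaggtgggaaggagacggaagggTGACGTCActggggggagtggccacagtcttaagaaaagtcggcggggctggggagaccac

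TATAAA began 203 bases before the upstream Il33 start, 29 bases before the inner Il33 start and 151 bases before the Ch25h start. TGACGTCA began 61 bases before the Ch25h start. On both strands, 12.4% of 32851 promoter windows of the same length held TATAAA and 1.55% held TGACGTCA. These 2 motifs were searched for after the sequences had been read. The TCF/LEF motifs CTTTGAT and CTTTGAA, present in 3.21% and 4.46% of the windows, were not in these 3 windows, which says only that these letters are not there. The 3 windows were 45.2%, 39.6% and 50.4% G and C, against a median of 52.4% over all windows.

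The CTRL libraries describe the fall that chose the 3 genes, so their values carry no test. Il33 was at 31177, 8577 and 11459 normalized counts in low CHIR and at 472, 12.8 and 29.8 in high CHIR, for replicates 1, 2 and 3. High CHIR left 1.51%, 0.149% and 0.260% of the low CHIR level of the same date. Ch25h was at 1644, 1768 and 1385 normalized counts in low CHIR and at 2.27, 12.8 and 0 in high CHIR.

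The 3 high CHIR values of Ch25h stood for 2, 12 and 0 reads, and a count of 0 allows up to 3 reads. Fgf1 was at 2661, 1077 and 2842 normalized counts in low CHIR and at 14.7, 21.4 and 18.8 in high CHIR, or 0.554%, 1.98% and 0.662% of the low level. Every low CHIR library lay above every high CHIR library for each of the 3 genes, as for 13.1% of the 16691 genes tested. In CTRL 10.7% of all genes were called. On the scale of log2(normalized count + 1), on which all log2 fold changes are given, the mean change was -7.95 for Il33, -8.80 for Ch25h and -6.72 for Fgf1. Without the replicate 2 that stood apart it was -6.91, -9.78 and -6.83. Across all genes tested, these were the third, the first and the fourth lowest changes, which the choice of the genes fixes.

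**Figure D1:**
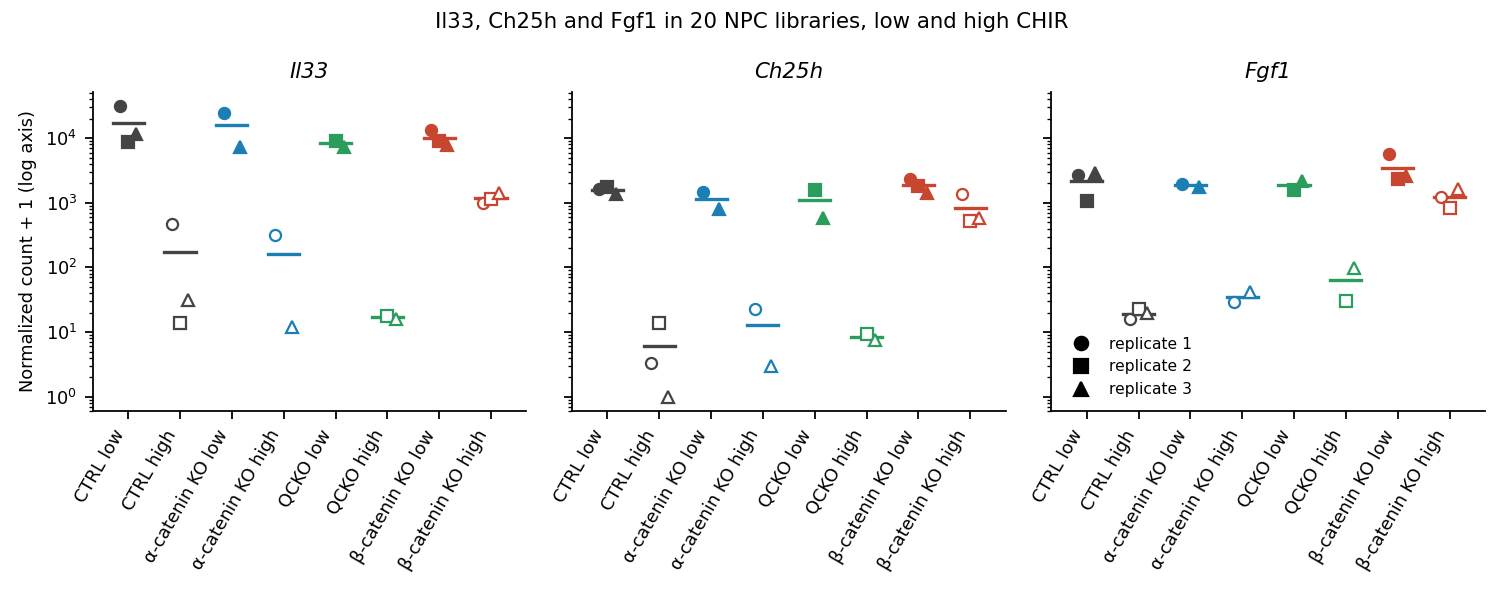
Normalized count + 1 (log axis) of Il33, Ch25h and Fgf1 in each of 20 NPC libraries, by knockout and CHIR condition. Filled symbols are low CHIR, open symbols high CHIR, the symbol shape is the replicate (date) and the bar is the group mean. The β-catenin KO libraries in high CHIR lie above every other high CHIR library in all 3 panels.

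The α-catenin KO and QCKO libraries address whether the fall occurs when parts of the adhesion complex are targeted. The rule that chose the genes did not use their values, but earlier results from these libraries were known when it was made, so their tests are not independent of that choice. Il33 was at 24325 and 7345 normalized counts in α-catenin KO in low CHIR (replicates 1 and 3) and at 313 and 11.1 in high CHIR. In QCKO (replicates 2 and 3) it was at 9143 and 7411 in low CHIR and at 16.9 and 15.0 in high CHIR. Both knockouts lost all but 1.29% of the low CHIR level or less on every date.

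Il33 fell by 7.76 in α-catenin KO (log2 scale, standard error, SE, 1.35, limma adjusted p = 0.00379) and changed by -8.93 in QCKO (SE 1.35, limma adjusted p = 0.000914). The call in α-catenin KO was lost without its low CHIR replicate 1 (log2 fold change -6.90, limma adjusted p = 0.0697) or without its high CHIR replicate 3 (-5.41, limma adjusted p = 0.0700).

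Ch25h was at 1447 and 804 normalized counts in α-catenin KO in low CHIR and at 21.9 and 2.02 in high CHIR, where it rested on 17 and 2 reads. In QCKO it was at 1590 and 591 in low CHIR and at 8.45 and 6.55 in high CHIR, 7 reads in each library. The enzyme's messenger RNA was thus counted at most 17 times in each of these high CHIR libraries, and each low CHIR library lay well above them. Ch25h fell by 7.02 in α-catenin KO (log2 scale, SE 0.96, limma adjusted p = 0.000565) and changed by -6.84 in QCKO (SE 0.96, limma adjusted p = 0.000510).

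Fgf1 was at 1986 and 1758 normalized counts in α-catenin KO in low CHIR and at 28.3 and 40.3 in high CHIR. In QCKO it was at 1594 and 2191 in low CHIR and at 29.0 and 95.4 in high CHIR. The growth factor's messenger RNA kept between 1.43% and 4.35% of its low CHIR level on these dates. Fgf1 fell by 5.75 in α-catenin KO (log2 scale, SE 0.55, limma adjusted p = 1.73e-05) and changed by -5.12 in QCKO (SE 0.55, limma adjusted p = 4.33e-05).

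Calls needed an adjusted p below 0.05 together with a log2 fold change of more than 0.5 in either direction. By that rule 3 of 3 genes were called lower in α-catenin KO, where 3.35% of all genes tested were called and 1.82% were called lower. In QCKO 3 of 3 were called lower as well, against 3.95% of all genes called and 2.13% called lower. Among the 3939 tested genes with a symbol, which the authors' own comparisons had selected for a difference, the shares called were 13.5% and 15.8%. With the 2 knockouts pooled, every low CHIR library lay above every high CHIR library for each of the 3 genes, as for 12.7% of all genes.

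The adhesion knockouts are set beside CTRL as a description only, since the CTRL libraries chose the genes for high levels in low CHIR and low levels in high CHIR. QCKO has no library of the first date, on which Il33 in CTRL in high CHIR was at 472 normalized counts against 12.8 and 29.8 on the other dates, so the values are given by date. In high CHIR, Il33 in α-catenin KO was 0.664 and 0.373 times CTRL of the same date (replicates 1 and 3). In QCKO it was 1.32 and 0.502 times CTRL (replicates 2 and 3). The difference of group means in QCKO, -1.79 on the log2 scale, was -1.11 with the date as a block, -0.29 without CTRL replicate 1 in high CHIR and -3.43 in DESeq2, and that in α-catenin KO turned from 0.07 to -0.27.

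Fgf1 in high CHIR was 1.92 and 2.14 times CTRL in α-catenin KO and 1.36 and 5.07 times CTRL in QCKO on the same dates. Ch25h rested on at most 17 reads in all of these libraries. Its log2 difference from CTRL in α-catenin KO, 1.22, turned to -0.24 without α-catenin KO replicate 1. Without the CTRL replicate 2 that stood apart it moved to 2.20, and that in QCKO from 1.25 to 2.22. Without that library the differences of Il33 were -0.97 and -2.83, and those of Fgf1, 0.87 and 1.49 with it, were 0.98 and 1.61. In low CHIR the log2 differences of both knockouts from CTRL ran from -0.82 to -0.11 over the 3 genes. Leaving out 1 library turned that of Il33 in α-catenin KO (up to 0.74) and those of Fgf1 in both knockouts (up to 0.14).

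β-catenin KO targets the protein that CHIR stabilises, and its libraries kept far more of each RNA in high CHIR. Il33 was at 13527, 9099 and 7806 normalized counts in low CHIR and at 990, 1136 and 1411 in high CHIR, for replicates 1, 2 and 3. The high CHIR level was 7.32%, 12.5% and 18.1% of the low CHIR level of the same date. The cytokine's messenger RNA was thus lower in high CHIR on 3 of 3 dates, with no overlap between conditions.

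Ch25h was at 2316, 1843 and 1412 normalized counts in β-catenin KO in low CHIR and at 1360, 530 and 587 in high CHIR, 58.7%, 28.7% and 41.6% of the low level. Fgf1 was at 5650, 2300 and 2558 in low CHIR and at 1222, 832 and 1625 in high CHIR, 21.6%, 36.2% and 63.5% of the low level. Both genes were lower in high CHIR on 3 of 3 dates. Every low CHIR library again lay above every high CHIR library, as for 4.72% of all genes.

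None of the 3 changes in β-catenin KO passed the test. The log2 change between high and low CHIR was -3.08 for Il33 (95% confidence interval -5.42 to -0.74, limma adjusted p = 0.935, unadjusted 0.0131). It was -1.28 for Ch25h (-2.93 to 0.38, limma adjusted p = 0.999, unadjusted 0.122) and -1.44 for Fgf1 (-2.39 to -0.50, limma adjusted p = 0.669, unadjusted 0.00513). Only 0.018% of all genes were called in this comparison by limma, 3 genes, and 57 by DESeq2, while 741 had an unadjusted limma p under 0.05. With DESeq2 and the other settings tried, the lowest adjusted p was 0.0632 for Il33 and 0.0857 for Fgf1.

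**Figure D2:**
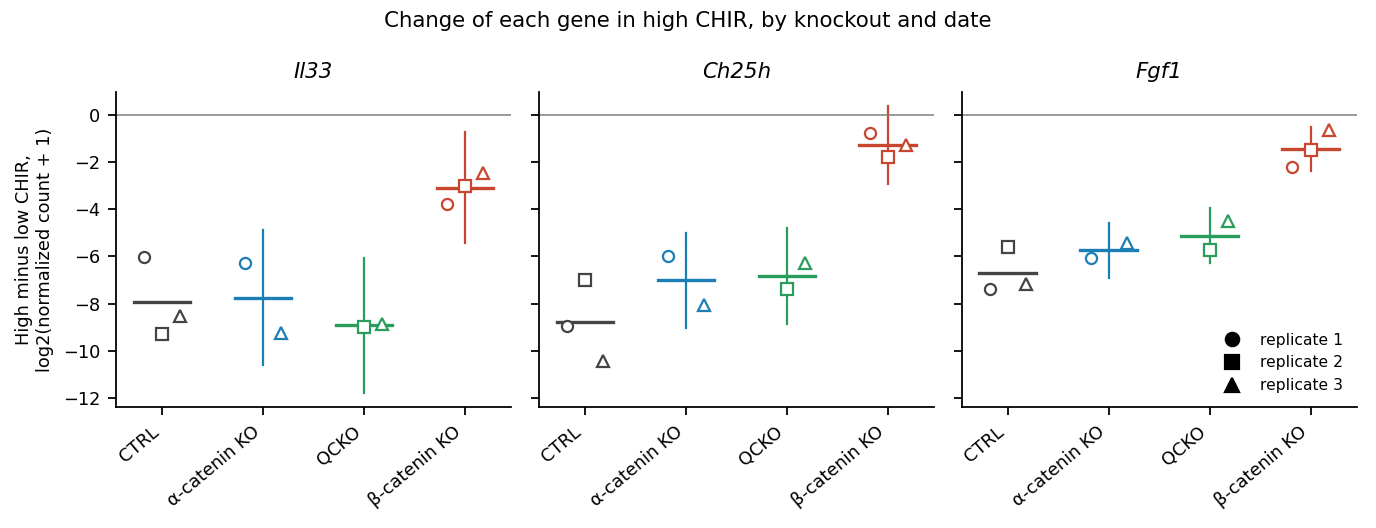
Change between high and low CHIR in log2(normalized count + 1) for each gene in the CTRL population and the 3 knockout populations. Points are single dates (symbol shape is the replicate), horizontal bars the fitted mean and vertical lines its 95% confidence interval, drawn for the knockouts only since CTRL chose the genes. The β-catenin KO points lie between -3.77 and -0.65, above every point of the other populations.

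The change in high CHIR differed between β-catenin KO and the adhesion knockouts for Ch25h and Fgf1. The difference of the log2 changes, β-catenin KO minus the mean of α-catenin KO and QCKO, was 5.66 for Ch25h (SE 1.03, limma adjusted p = 0.0140) and 3.99 for Fgf1 (SE 0.59, limma adjusted p = 0.00282). For Il33 it was 5.27 (SE 1.46, limma adjusted p = 0.121), which did not pass. With the shared date as a block the same 5.27 passed for Il33 (limma adjusted p = 0.0117). With a pseudocount of 0.25 the difference for Ch25h no longer passed (5.84, limma adjusted p = 0.0535). Of all genes, 1.01% were called in this comparison and 0.677% were called higher.

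In high CHIR alone, the 3 genes were higher in β-catenin KO than in the adhesion knockouts. The 3 β-catenin KO libraries ran from 990 to 1411 normalized counts for Il33, from 530 to 1360 for Ch25h and from 832 to 1625 for Fgf1. The 4 adhesion knockout libraries ran from 11.1 to 313, from 2.02 to 21.9 and from 28.3 to 95.4. Il33 was higher by a log2 difference of 5.18, or 36.2-fold (95% confidence interval 7.94 to 165, limma adjusted p = 0.00651). Ch25h was higher by 6.49, or 89.7-fold (30.6 to 263, limma adjusted p = 7.00e-05), and Fgf1 by 4.77, or 27.4-fold (14.8 to 50.5, limma adjusted p = 4.77e-06). Every β-catenin KO library lay above every adhesion knockout library for each of the 3 genes, as for 12% of all genes. Of all genes 5.76% were called, 4.06% higher. Among all changes, Ch25h had the fourth highest.

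**Figure D3:**
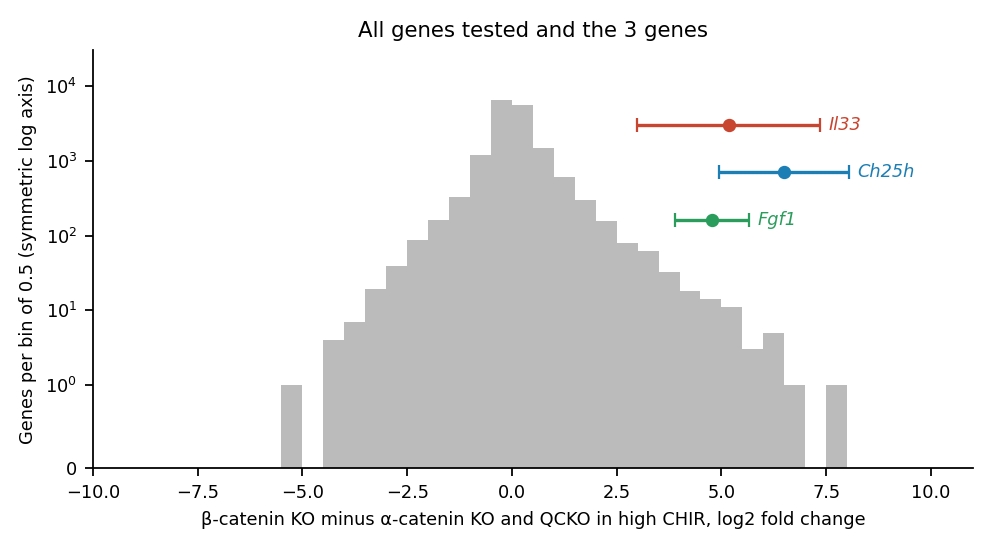
Number of genes per bin of 0.5 in the log2 difference between β-catenin KO and the mean of α-catenin KO and QCKO in high CHIR, for the 16691 genes tested (symmetric log axis). The coloured points give Il33 (5.18), Ch25h (6.49) and Fgf1 (4.77) with their 95% confidence intervals; their height in the plot has no meaning. The 3 genes lie in the right tail.

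Against CTRL, whose libraries chose the genes for low values in high CHIR, the log2 difference of β-catenin KO in high CHIR is a description and carries no test. It was 7.72 for Ch25h, 5.95 for Fgf1 and 4.32 for Il33. Without CTRL replicate 2 it was 8.70, 6.07 and 3.27. In edgeR and DESeq2 the difference for Il33 was smaller, at 2.78 to 2.80.

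On single dates Il33 in β-catenin KO in high CHIR was 2.10, 88.6 and 47.4 times CTRL, for replicates 1, 2 and 3. Fgf1 was 82.9, 39.0 and 86.4 times CTRL on these dates. In low CHIR the log2 differences between β-catenin KO and CTRL were -0.56 for Il33, 0.19 for Ch25h and 0.68 for Fgf1. Leaving out 1 library moved them, to -0.94 (without CTRL replicate 2) and -0.0068 (without CTRL replicate 1) for Il33, to 0.021 and 0.38 (without β-catenin KO replicates 1 and 3) for Ch25h and to 0.23 (without CTRL replicate 2) for Fgf1. These are sorted populations, in which fewer cells of a type and less RNA per cell cannot be told apart.

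The order of the 8 groups was alike in outline for the 3 genes, with the low CHIR groups first, β-catenin KO in high CHIR next and the other high CHIR groups last. For Il33 the group means ran from 17071 ± 12301 normalized counts in CTRL in low CHIR (SD, n = 3) through 1179 ± 214 in β-catenin KO in high CHIR (SD, n = 3) to 15.9 ± 1.4 in QCKO in high CHIR (SD, n = 2). Neighbouring low CHIR groups overlapped in their libraries for all 3 genes. β-catenin KO in high CHIR overlapped with no other group for Il33. For Fgf1 it ran from 832 to 1625 normalized counts, a range that held 1 CTRL library (1077) and 1 QCKO library (1594) in low CHIR.

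Ch25h in β-catenin KO in high CHIR (826 ± 464, SD, n = 3) ran from 530 to 1360 normalized counts, a range that held 1 α-catenin KO library (804) and 1 QCKO library (591) in low CHIR. From there the next group mean, α-catenin KO in high CHIR (21.9 and 2.02 in its 2 libraries), was 69.0 times lower and did not overlap. For Fgf1, the step from β-catenin KO in high CHIR (1226 ± 396, SD, n = 3) to QCKO in high CHIR (62.2 ± 47.0, SD, n = 2) was 19.7-fold. The last step, from α-catenin KO (34.3 ± 8.5, SD, n = 2) to CTRL in high CHIR (18.3 ± 3.3, SD, n = 3), was 1.88-fold, or 2.05-fold without CTRL replicate 2.

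Il33 also differed between dates within groups. Replicate 1 was 3.11 times the mean of the other replicates in CTRL in low CHIR and 22.2 times in CTRL in high CHIR. In α-catenin KO it was 3.31 times replicate 3 in low CHIR and 28.2 times in high CHIR. In β-catenin KO the ratio was 1.60 in low CHIR and 0.777 in high CHIR. QCKO has no library of that date, which bears on any comparison of Il33 between QCKO and the rest. For Fgf1 the same ratios ran from 0.702 to 2.33, and for Ch25h from 0.354 to 10.9, with both extremes in high CHIR libraries of few reads.

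Wnt4, a Wnt target that marks induced NPCs, was read in the same libraries. In CTRL, α-catenin KO and QCKO it was 41.1 to 123 normalized counts in low CHIR and 4156 to 5849 in high CHIR. The β-catenin KO libraries were at 30.1, 831 and 634 in low CHIR and at 252, 2387 and 1200 in high CHIR, all of the latter below the other populations. In replicates 2 and 3 in low CHIR, where Wnt4 was 11.4 and 8.81 times the CTRL of the same date, Il33 was 1.06 and 0.681 times, Ch25h 1.04 and 1.02 times and Fgf1 2.14 and 0.900 times CTRL. Six2, the NPC regulator, was at 798, 409 and 467 normalized counts in β-catenin KO in high CHIR, 64.6%, 42.2% and 60.5% of its low CHIR level.

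**Figure D4:**
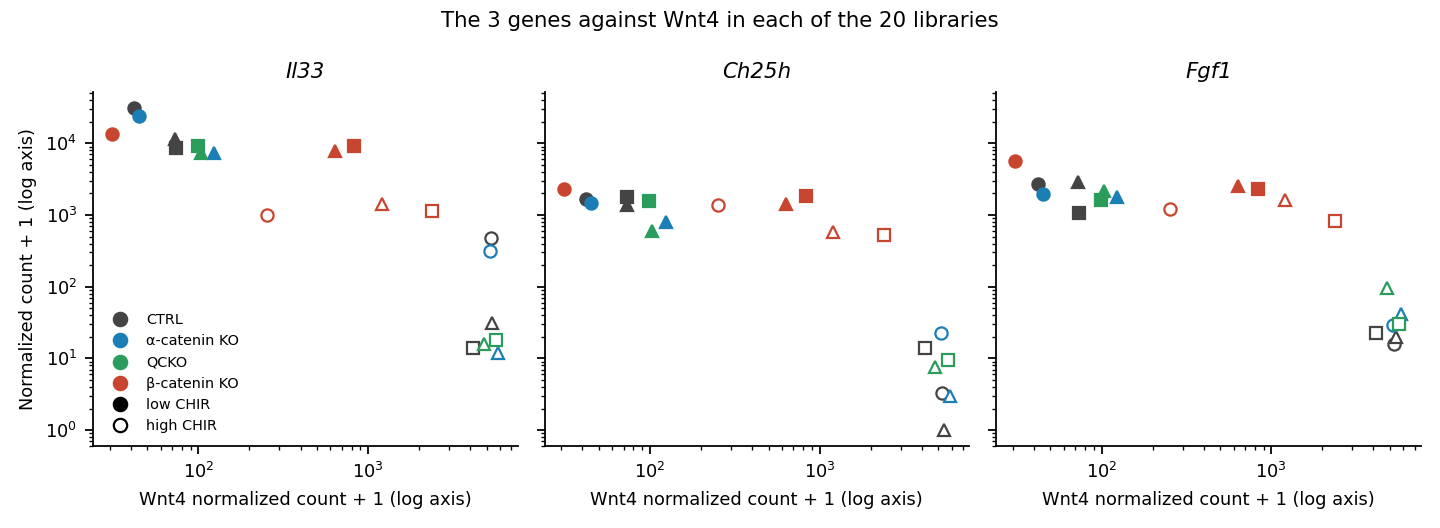
Normalized count + 1 of each gene against that of Wnt4 (both log axes), 1 point per library; filled points are low CHIR, open points high CHIR, and the symbol shape is the replicate as in the plot of levels. In each panel the 3 open β-catenin KO points lie above and to the left of the other open points.

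Among genes with a symbol and a mean of at least 100 (2869 genes), likeness was measured as the root mean square difference of log2 values over the 20 libraries after each gene's own mean was removed. This is a description, since the CTRL libraries that chose the genes enter it and all genes share the same libraries. Il33 was most like Nell1 (1.39), which encodes a secreted glycoprotein, the homeobox gene Meox2 (1.40), the neurotensin receptor gene Ntsr1 (1.60), Ch25h (1.73) and the interferon-inducible GTPase gene Iigp1 (1.86). Ch25h was most like Fgf1 (1.31), Meox2 (1.36), Nell1 (1.39), Ntsr1 (1.44) and BC030500 (1.47).

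Fgf1 was most like BC030500 (0.706), Meox2 (0.927), the cartilage matrix gene Matn1 (0.978), the retinol dehydrogenase gene Rdh10 (1.03) and CJ186046Rik (1.07). Meox2 was thus second for each of the 3 genes, with mean levels of 2247 (low CHIR) and 31.0 (high CHIR) normalized counts in CTRL, and of 2287 and 1279 in β-catenin KO. Among the 3 genes themselves, Fgf1 was the closest match of Ch25h, while Ch25h came 17th from Fgf1. From Il33, Ch25h came 4th and Fgf1 7th, and Il33 came 9th from Ch25h and 95th from Fgf1.

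Few other genes of the 3 pathways could be followed, since an identifier was known for 12 of 27 genes of the IL-33 list, 8 of 35 of the oxysterol list and 9 of 47 of the FGF list. These are genes that the authors' comparisons had selected for a difference. Il1rl1, which encodes ST2, was not among them. Those comparisons included CTRL in low against high CHIR. Of the 1793 genes called in CTRL here, 1774 have a symbol. Counts of list genes called in CTRL were thus partly fixed by how the genes were found. In CTRL, 7 of the 10 other IL-33 pathway genes tested were called between high and low CHIR, 6 lower and 1 higher, with a median change of -0.91, against 45% of all genes with a symbol called. In high CHIR, 7 of 10 were called higher in β-catenin KO than in CTRL (median 1.02), against 20.9% of genes with a symbol called higher. Of all genes tested 10.5% were called there and 7.67% were called higher. These 2 comparisons share the CTRL high CHIR libraries, and without replicate 2 of those they called 4 of 10 lower and 5 of 10 higher. The share called over all genes in that fit is not given here, for this list or the next 2. Of the same 10 genes, Nfkb1, an NF-κB subunit, was the 1 called between high and low CHIR in the adhesion knockouts, lower by a log2 change of -1.17 (α-catenin KO) and -1.11 (QCKO). That is 1 of 10, against 13.5% and 15.8% of all genes with a symbol called in these comparisons. The median change of the 10 genes was -0.09 and -0.32, against 0.01 and -0.01 for all genes.

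In β-catenin KO the mean of Nfkb1 was 362 normalized counts in low CHIR and 354 in high CHIR, and its response differed from the adhesion knockouts (1.10, limma adjusted p = 0.0280). Against the adhesion knockouts in high CHIR it was again the 1 of 10 called, higher by 0.87, close to the 10.8% of genes with a symbol called higher.

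Of the 7 other oxysterol pathway genes tested, Sc5d, a late enzyme of cholesterol synthesis, was the 1 called between high and low CHIR in the adhesion knockouts. It rose by 0.96 (α-catenin KO) and 0.84 (QCKO), the opposite direction to Ch25h, and 1 of 7 is close to the 13.5% and 15.8% of genes with a symbol called. In CTRL 4 of 7 were called, 2 in each direction (2 of 7 without CTRL replicate 2 in high CHIR), against 45% of genes with a symbol. Against CTRL in high CHIR β-catenin KO was called higher for 1 of 7, the sterol regulator gene Srebf1 (1.14), a call lost without that library. There 20.9% of genes with a symbol were called higher. The median change of the 7 genes was 0.59 (α-catenin KO) and 0.08 (QCKO). Between β-catenin KO and the adhesion knockouts in high CHIR their log2 differences ran from -0.30 (Fdps) to 0.16 (Srebf1), each smaller than the 0.5 a call needed, where 15.9% of genes with a symbol were called.

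The FGF list had 8 other genes tested, and the response gene Etv1, an ETS factor induced by FGF signalling, was called in both adhesion knockouts. Etv1 fell, with log2 changes of -2.53 (α-catenin KO) and -2.77 (QCKO), at limma adjusted p = 0.00175 and 0.000597. Its mean in β-catenin KO was 2657 ± 1312 normalized counts with low and 2018 ± 956 with high CHIR (SD, n = 3), and its response differed from the adhesion knockouts by 2.26 (limma adjusted p = 0.0176). Gpc3, a heparan sulphate proteoglycan gene, fell as well, with -0.95 and -1.12.

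In QCKO the feedback inhibitor gene Spry1 also fell, by 0.85, and Fgf12, an intracellular FGF homologue, rose by 3.59. Neither was called in α-catenin KO, where their means moved the same way. There Spry1 went from 2851 to 1669 normalized counts and Fgf12 from 4.71 to 44.1. With Etv1 and Gpc3, 2 of 8 were called in α-catenin KO and 4 of 8 in QCKO, against 13.5% and 15.8% of genes with a symbol. Against the adhesion knockouts in high CHIR, Etv1 (2.63) and Flrt3 (1.65), which encodes an FGF receptor partner, were higher in β-catenin KO, 2 of 8, against 10.8% of genes with a symbol called higher. In CTRL 6 of 8 were called, 5 lower and 1 higher, against 45% of genes with a symbol called, 27% lower. Without CTRL replicate 2 in high CHIR 5 of 8 were called, all lower. In high CHIR 4 of 8 were called higher in β-catenin KO than in CTRL, against 20.9% of genes with a symbol called higher. These were Etv1, Flrt3, Spry1 and the feedback inhibitor gene Spry4. Without CTRL replicate 2 the count was again 4 of 8. The median change of the 8 genes in the response to CHIR was -0.75 in α-catenin KO, -0.63 in QCKO and -0.11 in β-catenin KO. For all genes it was 0.01, -0.01 and 0.02.

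**Figure D5:**
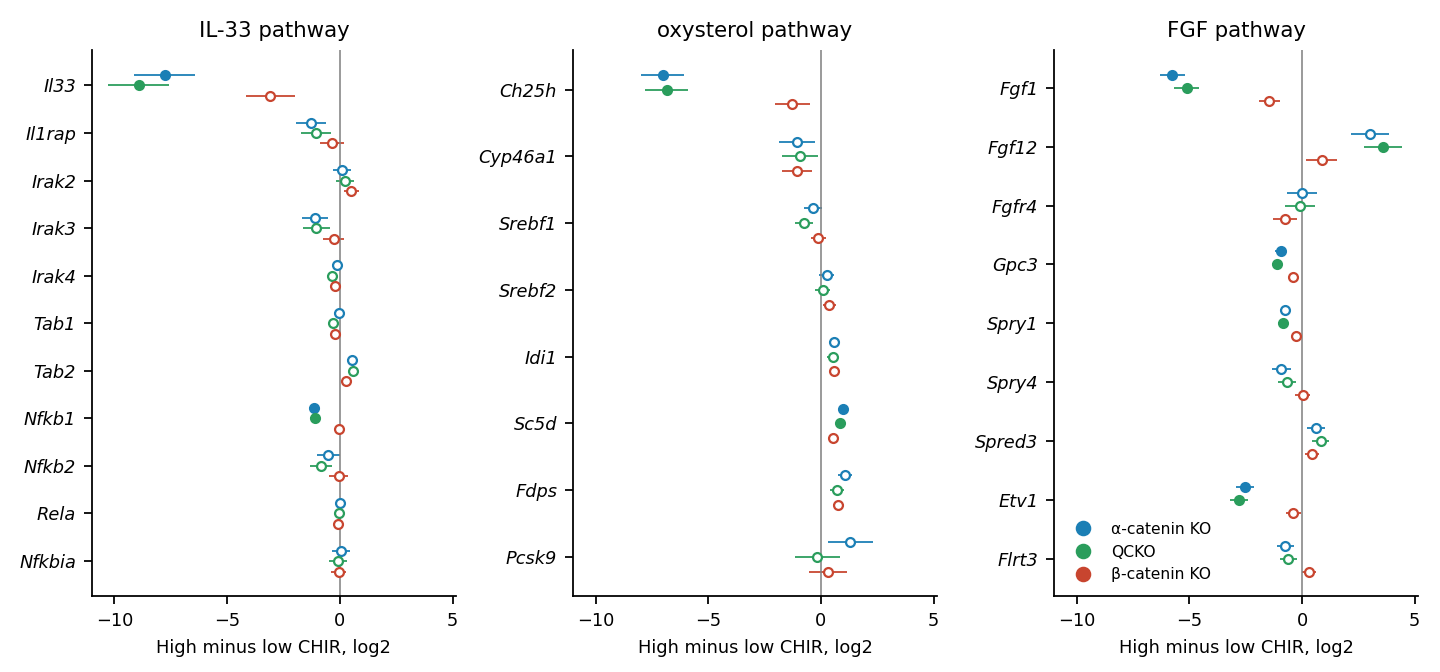
Log2 change between high and low CHIR for the tested genes of the IL-33, oxysterol and FGF lists in the 3 knockout populations. Bars are standard errors, and filled points were called. Il33, Ch25h and Fgf1 lie to the left of the other genes of their lists in the adhesion knockouts, and no gene is filled in β-catenin KO.

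Interleukin-33 and FGF1 are also made by stromal and endothelial cells, so markers of other cell types were read beside these values. Of 10 stroma markers 1, Meis1, had an identifier, and it was at 2143 to 2961 normalized counts in CTRL in low CHIR, 750 to 1090 in CTRL in high CHIR and 537 to 921 in β-catenin KO in high CHIR. Of 8 endothelium markers 2 had an identifier, and their summed level was 23.8 to 29.6 in CTRL in low CHIR, 89.7 to 178 in CTRL in high CHIR and 18.5 to 101 in β-catenin KO in high CHIR. It was 96.6 to 384 in α-catenin KO and 222 to 357 in QCKO in high CHIR.

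Cd34, 1 of these 2, averaged 24.8 normalized counts in CTRL with low CHIR and 0.261 with high CHIR, where it was at 0 in 2 of 3 libraries. In β-catenin KO it averaged 47.7 and 16.4. The adhesion knockouts averaged 2.44 (α-catenin KO) and 0.604 (QCKO) with high CHIR, below β-catenin KO (limma adjusted p = 0.00287), the same direction as the 3 genes. Tek, the other, went the opposite way, averaging 1.68 in low and 138 in high CHIR in CTRL and 4.03 and 45.6 in β-catenin KO. None of 9 leukocyte markers had an identifier, and 6 of 11 ureteric epithelium markers had one. These summed to 319 to 1386 in CTRL in low and 876 to 1059 in high CHIR, with members that differed in direction. In CTRL the means of Hoxb7 (298 to 653) and Gata3 (45.2 to 234) rose from low to high CHIR. Those of Cdh1 (217 to 36.4), Krt8 (175 to 49.2) and Krt7 (41.4 to 0.878) fell, as did the 3 genes. Libraries of Cdh1 and Krt8 overlapped. Wnt11 was at most 2.68 in these libraries. In β-catenin KO in high CHIR, Cdh1, Krt8 and Krt7 averaged 97.0, 91.5 and 9.11, above CTRL and below both adhesion knockouts. In high CHIR the sum was 1287 to 2349 in α-catenin KO and 1844 to 2125 in QCKO. That is above the 582 to 1152 of β-catenin KO, the opposite direction to Il33, Ch25h and Fgf1. The part of other cell types in the values of Il33, Ch25h and Fgf1 was not tested.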

How the data were processed

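Messenger RNA of 20 libraries was measured as gene counts. The deposited signal values are read counts that the authors had scaled with a single size factor for each library (normalized counts); multiplying back gave whole reads (tolerance 0.01) in every library. In 2 libraries the size factor is so near 1 that this check says little. The submitters' processing notes name bcl2fastq, STAR, featureCounts, Salmon, DESeq2 and the builds GRCm38, mm10 and GRCh38 without roles. The deposited comparison tables hold the authors' fold changes and p-values, which were not used, and gene symbols, which were. Values were log2(normalized count + 1), fitted in R 4.3.3 with limma 3.58.1 (mean-variance trend, 1 mean per group over 20 libraries, mean of at least 10, Benjamini-Hochberg adjustment over 16691 genes). edgeR 4.0.16 and DESeq2 1.42.0 ran on recovered reads as alternatives, beside other filters, pseudocounts of 0.25 and 5, quantile normalization, a date block and leaving out each library. The study calls its replicates biological, but whether they came from separate animals is not given in the sources used here, so p-values measure only the spread between these libraries. Read intervals and limits cover counting error only.

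The genes and lists were chosen with earlier results of these data known. Since the CTRL libraries chose the genes, differences of the 3 genes from CTRL are given without a test. Named genes were the 3 genes, called genes of the 3 pathway lists (up to 10 each), the 5 most similar profiles per gene, and Six2, Wnt4 and Ctnna1. Replicate numbers pair libraries through the date in the sample titles; deviations of paired low and high CHIR libraries from their group means correlated across genes at 0.0474 to 0.721. On simulated data of 16691 genes with 200 changed by a log2 fold of 5, limma recovered 185 (11 false calls) for α-catenin KO between CHIR conditions and 199 (10 false calls) for β-catenin KO against the adhesion knockouts in high CHIR; at a log2 fold of 1 it recovered 9 and 45.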

Additional observations from a re-analysis of the deposited data

Results flagged for a closer look

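Ch25h and Fgf1 responded to CHIR differently in β-catenin KO and in the adhesion knockouts by the test of the difference itself. The difference of log2 changes was 5.66 for Ch25h and 3.99 for Fgf1, and the change on each of the 3 β-catenin KO dates was smaller than on any adhesion knockout date for both genes. By date the same held for Il33, at -3.77 to -2.47 against -9.25 to -6.28. Its difference of 5.27 (limma adjusted p = 0.121) did not pass.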

How the results depend on the processing

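Of the alternatives to the 15 tested results of the 3 genes, those that compare no CTRL libraries, 458 kept direction and side of the threshold, 3 lost a call and 4 gained one. Leaving out a library that a comparison does not use cannot move its log2 difference. Part of this agreement was therefore fixed in advance. The other 21 results use CTRL and carry no test, and 16 of their alternatives reversed the direction. The response difference of Il33 passed with the replicate block by date (5.27), in DESeq2 (4.71) and without CTRL replicate 1 (5.27) or α-catenin KO replicate 1 (6.44) in high CHIR (4.09 to 6.44 over all fits without 1 library), and that of Ch25h did not pass at a pseudocount of 0.25 (5.84). Il33 in β-catenin KO against CTRL in high CHIR, given as a description, was 4.32 with only the groups compared, 2.80 in edgeR with TMM, 2.80 with the deposited size factors, 2.78 in DESeq2 and 3.27 to 5.82 without 1 library. Il33 in α-catenin KO between CHIR conditions ran from -10.11 to -5.41 without 1 library. Il33 in α-catenin KO against CTRL in high CHIR turned from 0.07 to -0.27 with the replicate block, -0.098 and -0.084 in edgeR with TMM and deposited size factors and -0.092 in DESeq2, with -2.28 to 2.42 without 1 library. Fgf1 in QCKO against CTRL in low CHIR was 0.0035 with the replicate block and -0.56 to 0.14 without 1 library. Without 1 library, Ch25h in α-catenin KO against CTRL in high CHIR ran from -0.24 to 2.68, and in low CHIR α-catenin KO against CTRL ran from -0.98 to 0.74 for Il33 and from -0.56 to 0.14 for Fgf1. Without 1 library, QCKO against CTRL in high CHIR ran from -2.83 to -0.29 for Il33, from 0.33 to 2.22 for Ch25h and from 0.65 to 2.33 for Fgf1, and in low CHIR from -1.20 to -0.27 for Il33 and from -1.43 to -0.00038 for Ch25h. β-catenin KO against CTRL in low CHIR ran from -0.94 to -0.0068, 0.021 to 0.38 and 0.23 to 0.93 for Il33, Ch25h and Fgf1. The replicate block changed no other call of the 15 tested results. The causes were not tested. A lone library left in a group was assumed to vary like the other groups.

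Counts of called genes moved more: between low and high CHIR from 166 to 1150 in α-catenin KO (559 as reported), from 245 to 1855 in QCKO (660) and from 0 to 57 in β-catenin KO (3). They ran from 75 to 522 for the response difference (169), for β-catenin KO against the adhesion knockouts in high CHIR from 494 to 1798 (962) and against CTRL from 240 to 3060 (1757). In CTRL they ran from 761 to 3107 (1793). Other pathway genes called numbered 2 to 8 in α-catenin KO (4), 1 to 13 in QCKO (6), 0 to 2 in the response difference (2), 2 to 5 against the adhesion knockouts (3), 6 to 20 in CTRL (17) and 2 to 15 against CTRL in high CHIR (12). Ch25h in α-catenin KO and QCKO against CTRL in high CHIR could not be fitted with only the groups compared, where its mean was under 10. Reads limit Ch25h in high CHIR, with 0 to 17 per library outside β-catenin KO.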
